A study of Caenorhabditis elegans with 2 samples.

Results

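The microRNA (miRNA) genes described here were all 261 genes that the Ensembl annotation of the WBcel235 genome classes as miRNA, among 46926 annotated genes of every kind. They were chosen by annotation alone, and let-7 and lin-4 are among them. The data came from chromatin immunoprecipitation followed by sequencing (ChIP-seq) of SEA-2, a zinc finger protein that is known from sex determination, where it is part of the autosomal signal, and from developmental timing, where it acts on lin-28. Whole young adult Caenorhabditis elegans were used at 64 hours of age, after bleaching and starvation at the first larval stage to synchronise them. There was 1 group with 2 biological replicates, both of strain OP586, which carries the transgene wgIs586 (sea-2::TY1 EGFP 3xFLAG with unc-119(+)) in an unc-119(tm4063) background. Both replicates come from the same transgenic line, the labels do not say whether they were separate cultures or which promoter drives the fusion, and sex was not recorded. The chromatin was sonicated to fragments of 200 to 800 bp, and the description states an anti-GFP antibody, whereas the antibody label reads sea-2. No mock or other precipitation was analysed here, so binding by SEA-2 and a general affinity of the chromatin cannot be told apart at any site below. The lists hold peaks and not expression, so the labelled whole animals could not be checked by marker genes.

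A miRNA is a small RNA cut from a hairpin in a longer transcript, first by Drosha and then by Dicer, and loaded onto an Argonaute protein. It pairs with target messages mainly through its seed, the stretch after the first base of its 5′ end, and genes with the same seed form a family that can share targets. In worms lin-4 and the let-7 family time the larval stages by repressing heterochronic genes, and lin-28, a known target of lin-4, restrains let-7 processing.

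The mature sequences of the mir-51 family are shown because this was the seed family with SEA-2 peaks. They were read from RefSeq coordinates on WBcel235, 5′ to 3′, with the seed (bases 2 to 8) in capitals. All 6 genes share the seed ACCCGUA, which lies on the 5′ arm of the hairpin in mir-51, mir-52 and mir-53, and on the 3′ arm in mir-54, mir-55 and mir-56.
mir-51: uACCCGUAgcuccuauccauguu
mir-52: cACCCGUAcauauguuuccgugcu
mir-53: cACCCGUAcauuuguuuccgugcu
mir-54: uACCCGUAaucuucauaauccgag
mir-55: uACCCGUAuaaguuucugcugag
mir-56: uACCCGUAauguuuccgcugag

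The other genes with a peak and the heterochronic miRNAs are shown in the same way for their seeds. The seed CCCUGAG is shared by lin-4 and mir-237, and GAGGUAG by let-7, mir-48, mir-84, mir-241 and mir-795, of which mir-48, mir-84 and mir-241 act beside let-7 in larval timing. The mature sequence of mir-35 stands for the 8 genes with the seed CACCGGG, a family that is essential for embryonic development.
mir-271: uCGCCGGGuggaaagcauuc
mir-4930: gGCUGCCUagggggcuggcuag
lin-4: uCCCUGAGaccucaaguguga
mir-237: uCCCUGAGaauucucgaacagcu
let-7: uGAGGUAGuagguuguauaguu
mir-48: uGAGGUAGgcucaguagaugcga
mir-84: uGAGGUAGuauguaauauuguaga
mir-241: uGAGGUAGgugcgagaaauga
mir-35: uCACCGGGuggaaacuagcagu

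The chromatin that gave these peaks is shown as windows of 201 bases centred on the summit, the position of highest signal within a peak, on the strand of the miRNA gene (ce11, which is WBcel235). Capitals mark matches, on either strand, to GAGAGA, to CGCGCA or to GCTGCCT, except at mir-271, where they mark the annotated hairpin gene itself. The first and second motif were taken from earlier results of these data, and the third is the seed of mir-4930 written as DNA. These motifs do not overlap each other in the windows.
mir-54 peak, chrX:13145194-13145394, minus strand: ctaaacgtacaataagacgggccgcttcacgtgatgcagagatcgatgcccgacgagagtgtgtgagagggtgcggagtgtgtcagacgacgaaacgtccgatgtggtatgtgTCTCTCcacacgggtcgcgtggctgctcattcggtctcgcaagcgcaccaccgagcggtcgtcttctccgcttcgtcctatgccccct
mir-51 peak, chrIV:11026099-11026299, minus strand: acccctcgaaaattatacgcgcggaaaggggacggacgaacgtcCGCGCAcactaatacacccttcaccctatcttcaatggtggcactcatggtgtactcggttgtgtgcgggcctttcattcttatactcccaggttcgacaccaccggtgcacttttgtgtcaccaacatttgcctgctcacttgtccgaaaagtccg
mir-52 upstream peak, chrIV:14033036-14033236, plus strand: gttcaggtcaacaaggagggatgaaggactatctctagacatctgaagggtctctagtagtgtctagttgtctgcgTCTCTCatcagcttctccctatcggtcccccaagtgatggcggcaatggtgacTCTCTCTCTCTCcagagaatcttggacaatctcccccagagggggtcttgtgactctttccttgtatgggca
mir-4930 peak, chrIV:2398438-2398638, plus strand: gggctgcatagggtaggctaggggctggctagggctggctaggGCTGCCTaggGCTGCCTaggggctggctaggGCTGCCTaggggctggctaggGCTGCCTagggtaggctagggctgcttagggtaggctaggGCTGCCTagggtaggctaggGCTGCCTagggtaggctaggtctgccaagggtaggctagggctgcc
mir-271 peak, chrX:3411954-3412154, plus strand: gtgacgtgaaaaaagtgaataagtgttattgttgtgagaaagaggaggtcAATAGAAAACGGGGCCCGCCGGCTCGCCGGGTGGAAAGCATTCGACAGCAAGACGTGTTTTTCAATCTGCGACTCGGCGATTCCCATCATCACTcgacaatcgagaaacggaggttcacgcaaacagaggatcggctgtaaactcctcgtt
lin-4 candidate, chrII:5901765-5901965, plus strand: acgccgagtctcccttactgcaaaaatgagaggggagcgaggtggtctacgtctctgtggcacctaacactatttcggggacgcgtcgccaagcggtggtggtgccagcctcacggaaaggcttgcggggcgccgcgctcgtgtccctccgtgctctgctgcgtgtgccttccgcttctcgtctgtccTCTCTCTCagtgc

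The windows differed from each other in sequence. The mir-54 and mir-51 windows, whose genes share a seed, had a longest common run of 8 bases on the same strand. The windows of mir-54, mir-52 and lin-4 held GAGAGA, the window of mir-51 held CGCGCA, and the window of mir-271 held none of the motifs. The mir-4930 window was a tandem array of GC-rich units (66.7% GC) in which GCTGCCT occurred 6 times on the strand shown. Of its 171 stretches of 31 bases, 41 occurred more than once in the nuclear genome, against 0 of 171 in the windows of mir-54, mir-51, mir-271 and lin-4. The count does not separate copies within the array from copies elsewhere. Reads from repeated stretches cannot always be placed at a single site, so the position of the mir-4930 peak may be uncertain, which was not tested.

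Peaks came from lists that the authors deposited. A candidate is any entry of the pooled ranked list made from both replicates (82563 in all), and its signal is the authors' own peak caller value, whose scale is not stated. A candidate was called selected when it also stood in the optimal or the conservative list, the authors' lists thresholded on the irreproducible discovery rate (IDR), which measures how poorly a rank repeats between lists. There were 453 optimal and 431 conservative peaks, 328 of them in both, so 556 candidates were selected. No source used here gives read depths, so how deeply either replicate was sequenced is unknown. A ranked list holds entries above the peak caller's minimum, and a gene with no candidate is not shown to lack SEA-2.

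SEA-2 peaks were found at a few miRNA genes. Of the 261 genes, 178 (68.2%, exact 95% Clopper-Pearson interval 62.2 to 73.8%) had at least 1 candidate within 500 bp. The same share was higher for snoRNA (79.8%), snRNA (74.4%) and tRNA genes (86.3%). The share of all annotated genes with a candidate was not computed, here or for the lists of the replicates. The 6 miRNA genes with a selected peak were mir-54, mir-55, mir-55b, mir-51, mir-4930 and mir-271 (2.30%, interval 0.848 to 4.94%), against 1.7% of all 46926 annotated genes. That 1.7% is lowered by chromosome IV, where the share was 0.543% of 19704 genes. On chromosomes I, II, III, V and X it was 2.08 to 3.09%, so miRNA genes are not shown to exceed the background. Intervals here and below cover counting error only, and neighbouring genes can share 1 peak. The 6 genes rested on 4 peaks, which were 1.53% (0.419 to 3.88%) of the 261 candidates near miRNA genes, against 0.671% of the 82302 candidates elsewhere and 0.673% of all candidates. The intervals of both shares hold the background value. The count of nearby candidates equals the count of genes by coincidence.

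Most candidates near miRNA genes were of ordinary height. Their median signal was 27.1, against 24.9 for the candidates elsewhere, while the selected peaks of the whole list had a median of 88.1. Of the miRNA genes, 83 had no candidate, 81 had 1, 69 had 2 and 28 had 3. The strongest candidate of a gene lay upstream of its 5′ end in 101 genes (within 100 bp in 27), downstream of its 3′ end in 58 and inside the gene in 19. The median percentile of the strongest candidate among all candidates was 75.7 (95% interval of the median over genes 70.2 to 83.3, n = 178). This percentile takes the best of up to 3 candidates per gene, and clustered genes share candidates, so it is a description and not a comparison with a random gene.

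The mir-54 cluster held the strongest peak. The genes mir-54, mir-55 and mir-56 follow one another on the minus strand of chromosome X, in an intron of the protein-coding gene F09A5.3, which is read from the plus strand, and mir-55b is annotated across mir-55 on the plus strand. The peak (chrX:13145142-13145445) had a pooled signal of 152.5, rank 73 of all candidates, and stood in the optimal and the conservative list with a −log10 IDR of 3.56. Its signal was 94.9 in replicate 1 (rank 61 in that replicate's list) and 60.3 in replicate 2 (rank 119), and it passed the threshold in each replicate's own list. The cluster was thus the only miRNA locus with a thresholded peak in both replicates. The summit lay 200 bp upstream of the 5′ end of mir-54, 370 bp upstream of mir-55 and 507 bp upstream of mir-56, just past the limit of 500 bp. Within the limit, mir-56 had an unselected candidate of signal 55.2, and 28.6 in replicate 1 and 32.5 in replicate 2. The nearest protein-coding start to the peak was that of F09A5.3 itself, 3693 bp away, and the nearest tRNA gene was 23963 bp away.

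The peak at mir-51 was the next strongest. The gene mir-51 (chromosome IV, 11026013 to 11026112, minus strand) lies outside protein-coding genes, and its peak had a pooled signal of 119.2 (rank 133), stood in both lists and had a −log10 IDR of 3.13. The summit lay 87 bp upstream of the 5′ end, in the annotated non-coding RNA gene F36H1.17. Replicate 1 gave a signal of 54.9 (rank 272), which did not pass its own threshold, and replicate 2 gave 62.2 (rank 110), which did. Both replicates thus ranked this site high in their lists, and 1 of the 2 selected it. Further upstream on the same strand, mir-53 had an unselected candidate of signal 37.5 63 bp upstream of its own 5′ end, with 27.3 in replicate 1 and no candidate in replicate 2.

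The remaining selected peaks stood nearer the threshold. The gene mir-4930 (chromosome IV, 2398652 to 2398761, plus strand) lies in an intron of Y38F2AR.10 on the opposite strand, and its peak 114 bp upstream had a pooled signal of 80.9 (rank 452) and a −log10 IDR of 2.29. It was in the conservative list and not in the optimal list, with signals of 44.3 in replicate 1 and 39.0 in replicate 2. Its −log10 IDR of 2.29 came from the comparison of the replicates, and the other pooled list gave 1.24. The gene mir-271 (chromosome X, 3412004 to 3412097, plus strand) had a summit inside the hairpin gene, with a pooled signal of 75.8 (rank 609), 44.0 in replicate 1 and 31.0 in replicate 2. Neither peak passed the threshold of either replicate's own list. The mir-271 peak was in the optimal list alone, and its −log10 IDR was 1.79 in the comparison of the replicates and 2.00 in the other pooled list. Its summit also lay 439 bp upstream of the start of unc-78, which encodes an actin-interacting protein, and within the antisense non-coding RNA gene C04F6.8, so the peak cannot be assigned to the miRNA gene alone.

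**Figure D1:**
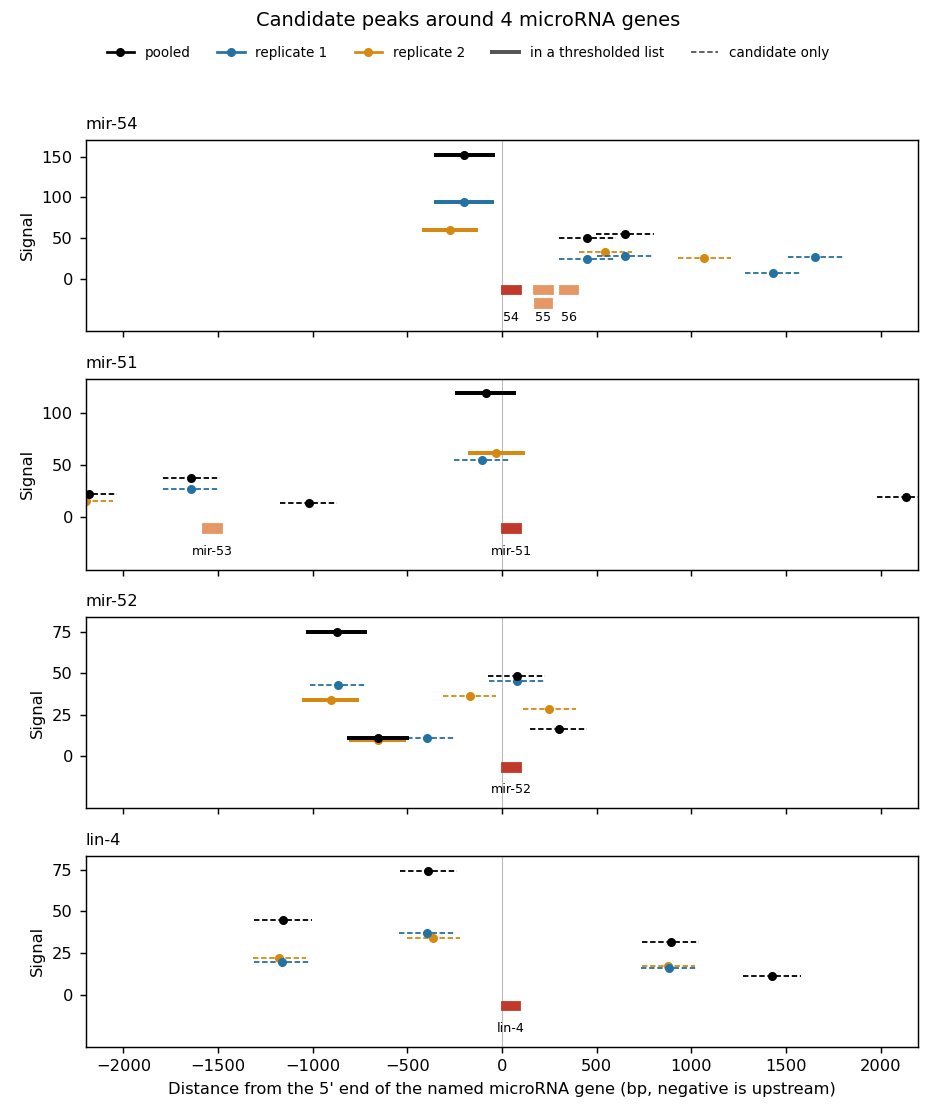
Candidate peaks around mir-54, mir-51, mir-52 and lin-4, with distance from the 5′ end of the named gene in bp on the x axis (negative is upstream) and the authors' signal on the y axis. Bars span the peaks, dots mark summits, thick solid bars are in a thresholded list, dashed bars are candidates only, and boxes below 0 are miRNA genes, of which the unnumbered lower box in the top panel is mir-55b. The highest pooled bar lies 200 bp upstream of mir-54 (152.5), 87 bp upstream of mir-51 (119.2), 872 bp upstream of mir-52 (75.1) and 389 bp upstream of lin-4 (74.4), and the bar of lin-4 is dashed.

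The mir-51 family is needed for embryonic development and shares its seed region with a microRNA family of mammals that includes miR-100. Of the 46 seeds that at least 2 miRNA genes share, ACCCGUA was the only seed with a selected peak within 500 bp of a member. Its 6 genes had strongest candidates between 37.5 (mir-53) and 152.5 (mir-54 and mir-55), with a median signal of 87.2 over genes. That median takes the shared peak of mir-54 and mir-55 for each of them. With the shared peak counted once, the middle value was the 55.2 of mir-56. Of the 6, 3 had a selected peak, and the mir-54 and mir-55 calls rested on the same peak. The members mir-52, mir-53 and mir-56 are given because they complete the family and were added after their values were seen. The gene mir-52 had an unselected candidate over the gene with a pooled signal of 48.4, and 45.6 at the same place in replicate 1. The strongest candidate of replicate 2 near mir-52 had a signal of 36.5 and lay at another site, upstream of the gene. Widening the limit to 1000 bp added mir-56, through the mir-54 peak, and mir-52. At mir-52 a peak of the optimal list lay 872 bp upstream (chrIV:14032984-14033287) with a pooled signal of 75.1 (rank 645), 42.8 in replicate 1 and 34.1 in replicate 2. A second optimal peak 655 bp upstream had a signal of 11.1 (rank 70370) and a −log10 IDR of 0.18 in the comparison of the replicates. A place in the optimal list thus did not require that value to reach 2. At this wider limit 8 miRNA genes (3.07%, interval 1.33 to 5.95%) had a selected peak, against 2.16% of all annotated genes. Of the 8, 5 share this seed, and mir-55b, mir-4930 and mir-271 do not.

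The other large families had candidates of moderate height and no selected peak. Of the mir-35 family, mir-35 to mir-40 sit in 1 cluster in an intron of Y62F5A.9 on the opposite strand and share 1 strongest candidate, with a pooled signal of 60.3 (rank 2007), 27.2 in replicate 1 and 35.1 in replicate 2. In the same family mir-42 had 49.7. The gene mir-41, in the same intron, had 20.2, since the shared pooled summit lay past the limit of 500 bp from it. In the lists of the replicates its strongest candidates were the shared ones, 27.2 in replicate 1 and 35.1 in replicate 2. The 5 genes with the let-7 seed had a median of 46.8, the 6 with the mir-80 seed, relatives of the fly bantam miRNA, 32.3, the 5 with the mir-63 seed 41.97, and the 6 with the mir-72 seed 43.3 over the 3 that had a candidate. The 8 genes with the mir-35 seed had a median of 60.3, the value of their shared candidate. These medians lay above the 24.9 of all candidates, and each value is the best of a gene's candidates. Genes that share a candidate each count it.

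**Figure D2:**
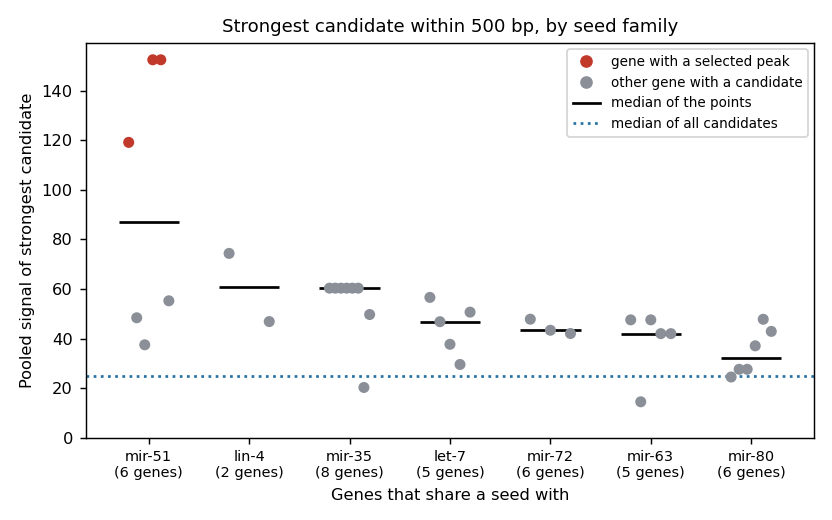
Pooled signal of the strongest candidate within 500 bp (y axis) for the genes of 7 seed families (x axis, with the number of genes in each). Points are genes, black lines are medians of the points, the dotted line is the median of all candidates (24.9), and red points are genes with a selected peak. The red points, at 119.2 and 152.5, belong to the mir-51 family. Genes that share a candidate, as mir-54 and mir-55 do, are each drawn and counted in the medians.

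The heterochronic miRNA genes had candidates, and none was selected. At lin-4, which represses lin-14 and lin-28, the strongest candidate lay 389 bp upstream, in the intron of F59G1.4 that also holds the gene, with a pooled signal of 74.4 (rank 680, percentile 99.2). Its signal was 37.1 in replicate 1 (rank 2074) and 34.3 in replicate 2 (rank 1253), and its −log10 IDR of 1.71 fell short of the 2 that corresponds to an IDR of 0.01. This was the highest signal among the miRNA genes with no selected peak, 74.4 against 75.8 at mir-271, the lowest selected one. At mir-237, which shares the lin-4 seed, the pooled signal was 46.8, and 33.1 at the same site in replicate 1. The strongest candidate of replicate 2 near mir-237 had a signal of 11.3 and lay on the other side of the gene.

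At let-7, which represses lin-41, the annotated gene spans a long primary transcript, and the strongest candidate lay inside it, 451 bp upstream of the mature miRNA. Its pooled signal was 56.6 (rank 2731), and the strongest candidates near the gene had 34.6 in replicate 1 and 41.1 in replicate 2. The replicate 1 summit lay 1557 bp from the 5′ end of the annotated gene, in a coding exon of C05G5.7, and the replicate 2 summit 663 bp from it. The replicate values thus belong to different sites. Nearer the pooled summit, at 499 bp from the 5′ end, replicate 1 had a weaker candidate of signal 23.0 (rank 16229). The let-7 gene is not wholly within a protein-coding gene and was counted as intergenic. Of the sisters of let-7, mir-48 had a pooled signal of 37.7, mir-241 46.8 and mir-84 50.7. Signal at mir-48 was 18.3 in replicate 1 and 18.8 in replicate 2, at mir-241 it was 31.9 in replicate 1 and 19.2 in replicate 2, and at mir-84 it was 34.6 in replicate 1 and 15.6 in replicate 2. The whole lists had medians of 19.0 in replicate 1 and 16.3 in replicate 2, so mir-241 and mir-84 stood well above the median in replicate 1 (percentiles 91.1 and 94.1) and less so or not at all in replicate 2 (66.4 and 45.6).

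Among the genes with no selected peak, the highest pooled signals after lin-4 were 68.2 at mir-2, in an intron of ppfr-1, which encodes a phosphatase regulatory subunit, 63.2 at mir-8194, 62.5 at mir-5546, in an intron of the actin nucleation gene arx-1, 62.1 at mir-5594, 61.8 at mir-50, in an intron of the talin gene tln-1, and the 60.3 shared by mir-35 to mir-40. The replicates differed at several of them. Signal at mir-2 was 45.5 in replicate 1 and 17.6 in replicate 2, and at mir-50 it was 48.6 in replicate 1 and 16.2 in replicate 2, where the strongest candidate lay at another site. At mir-5594 it was 46.3 in replicate 1 and 31.6 in replicate 2, and its −log10 IDR of 1.90 was the nearest to the threshold among these genes. No candidate that reached the IDR threshold and was left out of both thresholded lists lay near a miRNA gene, although the pooled lists held 79 such candidates.

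Well studied miRNAs with tissue roles had candidates that spanned the list, or none. Pooled signal was 55.4 at mir-71, known for lifespan and stress survival, 49.5 at mir-124, a miRNA of sensory neurons, 49.4 at mir-58.1, an abundant bantam relative, 47.8 at mir-81, 42.9 at mir-82 and 37.1 at mir-80. The percentiles of mir-71 (96.3), mir-124 (93.5), mir-58.1 (93.5) and mir-81 (92.3) put them in the upper part of the pooled list. In replicates 1 and 2 the percentiles were 89.9 and 76.6 at mir-71, and 84.3 and 87.8 at mir-81. At mir-124 replicate 2 had no candidate. At mir-58.1 they were 87.8 and 62.0, with the strongest summits on opposite sides of the gene's 5′ end. Pooled signal was 27.7 at mir-228, 27.5 at mir-34, known for the response to DNA damage, and 19.5 at lsy-6, which sets left-right asymmetry of taste neurons. Of these, lsy-6 lay below the median of all candidates (24.9), and all lay below 75.8, the lowest selected peak at a miRNA gene. No pooled candidate lay within 500 bp of mir-1, a muscle miRNA, mir-60, mir-85 or mir-246. At mir-1, replicate 2 alone gave a candidate, with a signal of 14.0.

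The replicates were compared gene by gene in their own lists, which held 51269 candidates in replicate 1 and 50405 in replicate 2. In replicate 1, 148 miRNA genes (56.7%) had a candidate and 3 had a thresholded peak, while 1 of 175 nearby candidates (0.571%) was thresholded, against 0.326% of that list. In replicate 2, 145 genes (55.6%) had a candidate and 4 had a thresholded peak, while 2 of 173 nearby candidates (1.16%) were thresholded, against 0.236% of that list. The intervals of the 0.571% and the 1.16% were 0.0145 to 3.14% and 0.140 to 4.11%, and each holds the share of its list. The share of all annotated genes with a thresholded peak was not computed for either replicate. Median signals near miRNA genes were 20.5 in replicate 1 and 17.0 in replicate 2, against 19.0 and 16.3 over the whole list of each. The replicate 1 genes were mir-54, mir-55 and mir-55b, and replicate 2 added mir-51. A candidate was present in both replicates at 104 genes, in replicate 1 alone at 44, in replicate 2 alone at 41 and in neither at 72. The genes whose strongest candidate reached the top 5% of its list numbered 13 in replicate 1 and 25 in replicate 2. These counts take the best of each gene's candidates, and clustered genes share candidates, as mir-35 to mir-41 do in replicate 2. The share of all annotated genes in the top 5% was not computed. The miRNA genes in the top 5% of both replicates numbered 9. At 8 of these, the 6 genes with a selected peak, lin-4 and mir-5594, the summits of the replicates lay within 200 bp of each other, and at mir-52 they did not. The 6 selected genes rest on 4 peaks. Selection by the IDR already favours peaks whose rank repeats between lists, so agreement at these genes is partly built in. Of the 104 genes with a candidate in both replicates, 69 had their strongest summits within 200 bp of each other, so at the others the replicates gave different sites. This share was not computed over all annotated genes.

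**Figure D3:**
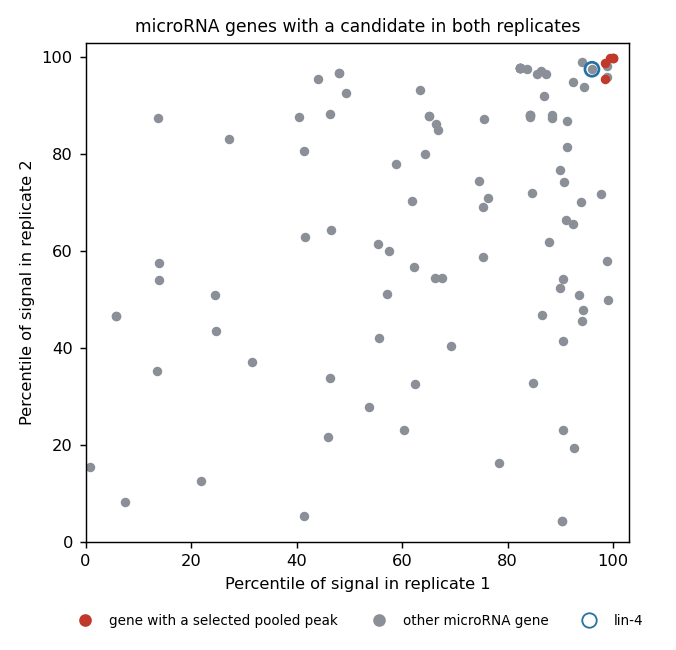
Percentile of the strongest candidate's signal within the list of replicate 1 (x axis) and of replicate 2 (y axis) for the 104 miRNA genes with a candidate in both. Each point is a gene, genes that share a peak overlap, red marks the genes with a selected pooled peak and the blue ring marks lin-4. The values of a gene need not come from the same site, as at mir-52. The red points and lin-4 lie in the upper right corner, and the grey points spread over the plot. Selection by the IDR favours peaks whose rank repeats, so the place of the red points is partly built in.

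Genes inside protein-coding genes and intergenic ones were set side by side, with no test between the classes. Of 106 genes wholly inside a protein-coding gene, 83 (78.3%, interval 69.2 to 85.7%) had a candidate, against 95 of 155 intergenic genes (61.3%, 53.1 to 69.0%). These intervals nearly touch, and they treat genes as independent although neighbouring genes share windows. The strongest candidate had a median signal of 41.97 (percentile 86.9, interval 74.0 to 91.3) inside and 31.1 (percentile 66.8, interval 58.9 to 77.6) in intergenic genes. Clusters share candidates, and with each strongest candidate counted once the median percentile was 79.6 inside (70.2 to 88.0, n = 72) and 70.7 in intergenic genes (59.6 to 80.2, n = 85), whose intervals overlap. Across all nearby candidates the medians were 26.4 inside and 27.5 in intergenic genes. In replicate 1 the median of the strongest candidate was 22.8 inside and 24.9 in intergenic genes, and in replicate 2 it was 21.0 inside and 17.9 in intergenic genes, so the order of the classes was not the same in the replicates.

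Selected peaks were few in both classes. They were found at 4 of 106 genes inside protein-coding genes (3.77%, interval 1.04 to 9.38%) and at 2 of 155 intergenic genes (1.29%, interval 0.157 to 4.58%), and the 4 inside genes rested on 2 peaks. With inside limited to hosts read from the same strand the order turned round, with 1.35% of 74 genes inside and 2.67% of the other 187. Among the nearby candidates 2 of 134 (1.49%) were selected inside and 2 of 127 (1.57%) in intergenic genes. In the whole list 0.463% of candidates with a summit inside protein-coding genes and 1.11% of those outside were selected. By host strand and part, 67 genes lay in introns of a host read from the same strand (54 with a candidate, 1 selected, mir-55b), 30 in introns of a host on the opposite strand (23 with a candidate, 3 selected), 7 in exons of the same strand (5 with a candidate) and 2 in exons of the opposite strand (1 with a candidate). The genes in opposite-strand introns include the mir-35 and mir-54 clusters, and their strongest candidates had a median of 50.9, against 36.9 in same-strand introns.

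**Figure D4:**
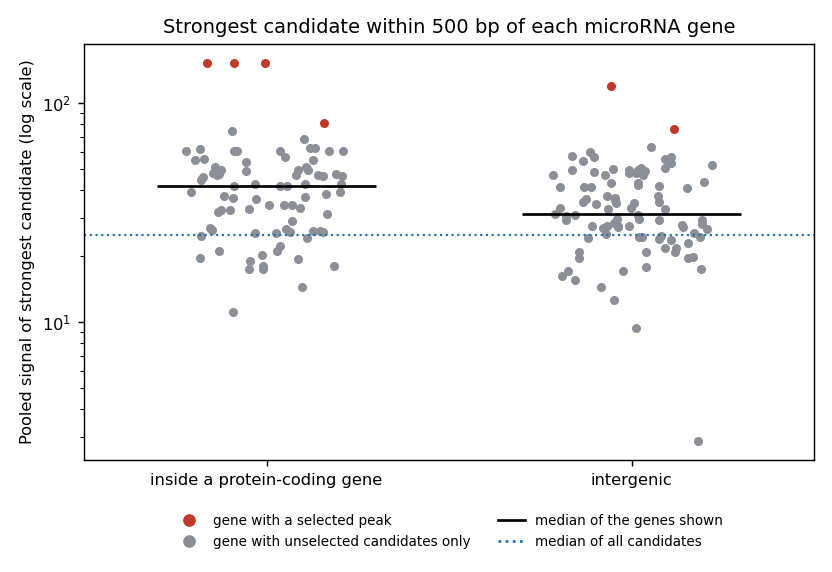
Pooled signal of the strongest candidate within 500 bp (y axis, log scale) for the 83 miRNA genes inside protein-coding genes and the 95 intergenic ones that had a candidate. Points are genes spread sideways at random, red marks genes with a selected peak, black lines are medians (41.97 inside, 31.1 intergenic) and the dotted line is the median of all candidates (24.9). Apart from the red points, the classes overlap over most of their range.

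The selected miRNA genes lay on chromosomes X (4 of 74 genes, on 2 peaks, against 3.09% of all annotated genes there) and IV (2 of 50, against 0.543%). No selected peak was found at the 33 miRNA genes of chromosome I (against 2.78% of all its genes), the 49 of II (2.08%), the 27 of III (2.88%) or the 28 of V (2.12%). Chromosome IV has 19704 annotated genes of the 46926 and by far the lowest background share. It therefore lowers the share of all annotated genes, and the gap between miRNA genes and background on IV was not tested. The median signal of the strongest candidate ranged from 27.7 on IV to 41.5 on III and was 33.7 on X, so the chromosomes with selected peaks were not those with the highest medians.

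miRNA genes carried fewer selected peaks than the genes of small structural RNAs. The share with a selected peak was 2.30% of 261 miRNA genes (interval 0.848 to 4.94%), against 12.4% of 346 snoRNA genes (9.14 to 16.4%), 10.9% of 129 snRNA genes (6.06 to 17.5%) and 10.6% of 634 tRNA genes (8.28 to 13.2%). The miRNA interval did not overlap the others. Of the nearby candidates 1.53% were selected at miRNA genes, against 9.84% at snoRNA, 10.9% at snRNA and 8.29% at tRNA genes. Median signal was 27.1 near miRNA genes, against 31.7, 33.0 and 36.6 near snoRNA, snRNA and tRNA genes. The selected miRNA peaks were not close to these genes, since the nearest tRNA gene lay between 23963 bp (mir-54) and 241271 bp (mir-4930) from the summit and the nearest snoRNA gene between 9970 bp (mir-4930) and 639750 bp (mir-271).

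**Figure D5:**
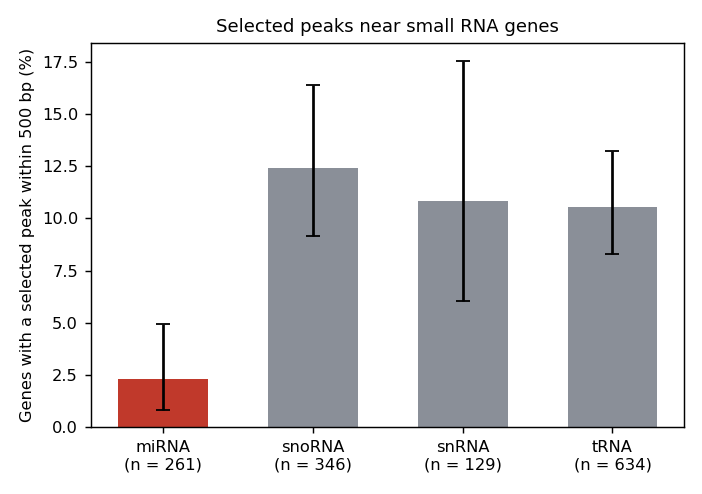
Percentage of genes with a selected peak within 500 bp (y axis) for 4 kinds of small RNA gene (x axis, with the number of genes). Bars are shares and error bars are exact 95% Clopper-Pearson intervals, which cover counting error only. The miRNA bar, at 2.30%, lies below the bars of snoRNA (12.4%), snRNA (10.9%) and tRNA genes (10.6%).

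The promoters of genes that make or serve miRNAs were read as a second view of the pathway. A promoter reached 1000 bp before and 200 bp past the gene start. The list of 18 genes was chosen with earlier results of these data known, so its counts are a description and not an independent comparison. The share of all promoters with a candidate was not computed. Of the 18 genes, 17 were found by symbol, 12 had a candidate and 2 had a selected peak, beside 1.31% of 19985 protein-coding promoters. The 2 were nhl-2, which encodes a TRIM-NHL protein that enhances the activity of the miRNA silencing complex, with a signal of 215 (rank 29) at 798 bp upstream, and vig-1, a component of that complex, with 80.2 (rank 474) at 407 bp upstream. The other 15 had none selected, among them the GW182 gene ain-1 (67.2), the RNA helicase gene cgh-1 (56.1), the Drosha gene drsh-1 (53.0), the Argonaute genes alg-1 (34.05) and alg-2 (40.6) and lin-28 (31.0). No candidate lay in the promoters of pash-1, the partner of Drosha, dcr-1, which encodes Dicer, ain-2, xrn-1 or pup-2.

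The base composition of the candidates near miRNA genes differed from that of the list in the direction of the selected peaks. Median GC content of the 201-base windows was 42.3% near miRNA genes, against 39.8% over all candidates, and 48.8% in the selected peaks. GAGAGA was present on either strand in 23.4% of the windows near miRNA genes (61 of 261), against 11.7% of all candidates, and in 26.4% of the selected peaks. CGCGCA was present in 5.36% near miRNA genes, against 3.996% of all candidates, and in 17.1% of the selected peaks. GCTGCCT was present in 1.53% near miRNA genes, against 1.18% of all candidates, and in 3.06% of the selected peaks. GAGAGA and CGCGCA were taken from earlier results of these data, and GCTGCCT from mir-4930, a gene with a selected peak. Their shares in the selected peaks are therefore not independent of how the motifs were chosen. The mir-4930 window is also among the 4 windows near miRNA genes that held GCTGCCT, so that share is not independent either. A match says only that these letters stand in the window, and the part of base composition in the signal was not tested.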

How the data were processed

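The authors deposited 8 peak lists on ce11, per the description files that came with the samples: a ranked and a thresholded list for each replicate, and 2 ranked lists, an optimal and a conservative thresholded list for the pooled replicates. The deposited lists hold a signal per peak, whose scale is not stated, and −log10 values of the q value and of the IDR. Names of the aligner and peak caller were not given in the sources used here.

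Candidates were assigned to the Ensembl release 115 miRNA genes by a distance of at most 500 bp between summit and gene. A gene was inside when it lay wholly within a protein-coding gene on either strand. Shares have exact 95% Clopper-Pearson intervals, and intervals of medians are order-statistic intervals over genes, which are not independent. With 1 group and no control analysed, no test between samples was possible. All 261 genes matched RefSeq by WormBase ID; mir-58 is named mir-58.1 there, and ntl-1 was not found by symbol. Names in the text are the genes with a selected peak, the 10 highest unselected ones with ties, and lists of landmark miRNAs and pathway genes. The members and lists were chosen with earlier results of these data known. Alternatives were other distances, lists and definitions of inside. The distance step was checked on simulated data. Python 3.11.15, numpy 2.4.6, pandas 2.3.3, scipy 1.17.1 and matplotlib 3.10.9 were used.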

Additional observations from a re-analysis of the deposited data

How the results depend on the processing

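The count of 6 miRNA genes with a selected peak ranged from 4 (summits within 200 bp) to 8 (within 1000 bp) across the alternatives that used both replicates, and was 5 in the optimal list alone, 5 in the conservative list alone and 5 for every candidate at an IDR of 0.01 or less. Taken from the thresholded list of a single replicate it was 3 to 4, and the lowest value, without replicate 2, lacked mir-51, mir-4930 and mir-271. The share of intergenic genes with a selected peak, 1.29% in the report, was 0 to 0.645% with 1 replicate left out, and 0 without replicate 2, since none of the intergenic genes had a thresholded peak in replicate 1. It was 0.645% in the conservative list alone, at an IDR of 0.01 or less and at or above the median signal, and 2.67% with inside limited to hosts of the same strand, where the inside share was 1.35%, so the order of the classes turned round. The share of nearby candidates that were selected stayed within 0.571 to 3.31%, and that of genes inside protein-coding genes within 1.35 to 4.72%. The median percentile of the strongest candidate, 75.7, was 66.6 at 200 bp and 66.4 to 69.5 with 1 replicate left out. At 200 bp fewer candidates per gene can be chosen from, and single replicates have shorter lists. The mir-54 peak was called under every alternative, and mir-55 and mir-55b under each except the distance of 200 bp. No paired analysis was possible because there is 1 group. Signal scale and read depth are unknown, so heights are compared by rank within a list, and weak sites may be missing from the lists.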
